A study of Mus musculus with 6 samples.

Results

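The 36 genes described here belong to the amino acid arm of the integrated stress response, the programme led by the transcription factor Atf4. They comprise Atf4, Ddit3 (the gene of Chop) and related stress factors, feedback and stress effectors, enzymes that make serine, glycine, one-carbon units, asparagine, proline and cysteine, amino acid transporters, and aminoacyl-tRNA synthetases. Members were taken by gene symbol from the deposited count table, which gave 37 of 54532 rows with a gene name. Ddit3 has 2 rows, and the second (ENSMUSG00000116429) held 0 counts in every library, so each symbol is represented by 1 row and all 36 passed the filter on low counts. RNA came from C2C12, an immortal line of mouse myoblasts able to form myotubes when serum is withdrawn, with 3 wild-type libraries and 3 that carry the label Gmppb-KO, all lysed after 2 days in culture. Gmppb encodes the enzyme that makes GDP-mannose, the mannose donor of protein glycosylation. The Gmppb-KO cells had received CRISPR/Cas9 plasmids with guides to exons 1 and 5 of Gmppb, were selected in puromycin at 4 µg per ml and were grown out as monoclonal cells; the labels list no treatment for wild-type cells. Whether the Gmppb-KO libraries stem from 1 clone or several is not given, and no label says that replicates were separate cultures, so p-values measure only how far these samples scatter, and that scatter may be technical.

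As background, cells that lack an amino acid, accumulate misfolded protein in the endoplasmic reticulum or sense double-stranded RNA phosphorylate the initiation factor eIF2 through dedicated kinases. Bulk protein synthesis then slows while Atf4 messenger RNA is translated more, because upstream open reading frames in its leader keep it silent in unstressed cells. Atf4 protein therefore can change with no change of its messenger RNA, and RNA counts do not measure it. With C/EBP family partners it binds C/EBP-ATF response elements and induces genes for amino acid supply, tRNA charging, and the feedback proteins that end the response.

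The response element was looked for as TGATGNAAN on both strands, from 250 bases before to 50 bases after the annotated start, in RefSeq promoter windows of the mouse build GRCm38.p6, the assembly that mm10 also denotes. Windows were matched by symbol for 30 of the 36 genes, all but Cth, Eif4ebp1, Nars, Slc1a5, Slc7a5 and Wars. A match stood in 11 of these 30 genes, or 36.7%, against 4.5% of all 27025 genes with a window. A match is a description of letters in this window, not evidence of binding. The genes were picked as part of the Atf4 programme, so their higher share is not an independent finding. Elements outside the window were not searched for. The forms were TGATGCAAT in Pycr1, Nupr1 and Aars, TGATGCAAC in Slc1a4, Chac1 and Vldlr, TGATGCAAG in Atf3, TGATGCAAA in Slc7a11, TGATGAAAC in Asns, TGATGAAAT in Gars, TGATGTAAA in Trib3 and TGATGAAAA at a second place in Aars. Slc7a11 held its form in both directions, at bases -66 to -58 and -48 to -40 from the start. The windows of 4 genes are printed: that of Trib3, the member with a match that passed the gene test, and those of the matched members next in order of unadjusted p. Each runs 5′ to 3′ along the gene, with 250 bases before the start and the first 30 after it, and capitals mark the match, which reads as the reverse complement where it lies on the opposite strand. Their positions are chr2:152344031-152344310, minus strand for Trib3, chr11:20332684-20332963, minus strand for Slc1a4, chr11:120643719-120643998, minus strand for Pycr1 and chr19:27216770-27217049, plus strand for the second of 2 annotated starts of Vldlr.
Trib3: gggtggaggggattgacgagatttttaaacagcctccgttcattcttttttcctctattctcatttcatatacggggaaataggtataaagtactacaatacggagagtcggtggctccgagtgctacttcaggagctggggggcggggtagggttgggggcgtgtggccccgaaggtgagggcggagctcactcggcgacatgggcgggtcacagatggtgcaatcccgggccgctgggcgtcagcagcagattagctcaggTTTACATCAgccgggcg
Slc1a4: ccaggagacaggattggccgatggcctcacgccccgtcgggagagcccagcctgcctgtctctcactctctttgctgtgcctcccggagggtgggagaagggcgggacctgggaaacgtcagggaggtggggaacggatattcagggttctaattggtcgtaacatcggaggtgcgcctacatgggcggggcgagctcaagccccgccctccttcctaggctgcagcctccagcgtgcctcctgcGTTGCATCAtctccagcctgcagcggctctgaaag
Pycr1: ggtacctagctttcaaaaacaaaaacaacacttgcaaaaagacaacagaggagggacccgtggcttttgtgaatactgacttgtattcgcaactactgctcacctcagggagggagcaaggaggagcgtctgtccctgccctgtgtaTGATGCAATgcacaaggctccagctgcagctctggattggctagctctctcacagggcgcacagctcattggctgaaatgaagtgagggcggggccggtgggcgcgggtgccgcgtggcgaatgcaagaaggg
Vldlr: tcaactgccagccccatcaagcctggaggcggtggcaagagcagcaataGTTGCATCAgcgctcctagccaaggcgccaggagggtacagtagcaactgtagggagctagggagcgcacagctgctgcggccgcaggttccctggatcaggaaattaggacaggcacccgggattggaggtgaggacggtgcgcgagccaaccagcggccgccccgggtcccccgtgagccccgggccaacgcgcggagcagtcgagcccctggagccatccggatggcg

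In Trib3 the match ran from base 14 to 22 after the RefSeq start, and in the deposited table, where the gene ends at base 152344032 on the minus strand, the same letters lie just before it. The match of Slc1a4 spanned its start, from base -5 to 4. That of Pycr1 lay at bases -103 to -95 and that of Vldlr at bases -201 to -193. The log2 fold changes of Gmppb-KO over wild-type, described gene by gene further on, ran from -0.29 to 2.04 with a median of 0.46 in the 11 genes with a match. They ran from -2.64 to 0.79 with a median of 0.37 in the 19 genes with a window and no match. Cth, with the largest log2 fold change of the members at 2.62, had no window and is in neither set. The value of 2.04 is that of Vldlr, which had few counts and was not called.

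**Figure D1:**
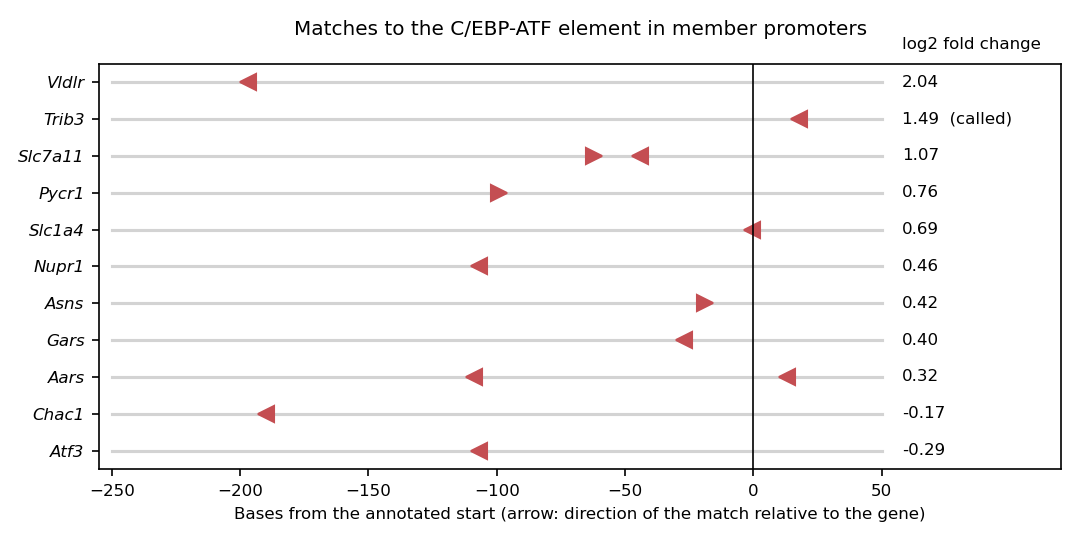
Position of each match to the C/EBP-ATF element (arrow heads, pointing along the match relative to the gene) in bases from the annotated start, for the 11 genes that hold 1 or more; grey lines are the searched windows and the right-hand column gives the log2 fold change of Gmppb-KO over wild-type. Matches lie between bases -201 and 22, and Trib3 alone among these 11 genes passed the gene test.

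Total counts in named genes ran from 16011021 to 18566759 per library. Along the first principal component, with 61.1% of the variance, the groups were separate, with Gmppb-KO replicate 3 farthest out. Gmppb, the targeted gene, ranged over 18.1 to 23.9 CPM in wild-type libraries and over 13.01 to 20.6 CPM in those labelled Gmppb-KO, at a log2 fold change of -0.34 ± 0.26 (SE, edgeR adjusted p = 0.459). The level of its messenger RNA thus does not check the labels. Of 7 myoblast markers, all detected, 4 fell (Myod1, Myog, Pax7 and Chrna1) and 0 rose. The log2 fold change was -3.84 ± 0.59 for Myog, -3.40 ± 0.54 for Pax7 and -0.97 ± 0.19 for Chrna1. Their edgeR adjusted p were 0.00732, 0.00867 and 0.024 in that order. The defining factor Myod1 went from 152 to 163 CPM down to 0.326 to 0.560 CPM, while Des, the muscle intermediate filament gene, was not called. Myf5 was also not called, at a log2 fold change of 1.32 ± 0.46 (edgeR adjusted p = 0.168). Of 8 tested fibroblast markers (11 in the list) 4 rose (Col1a1, Postn, Dcn and Mfap5) and 2 fell (Pdgfrb and Osr1). The summed level of the 11 ran from 753 to 1070 CPM in wild-type and from 2220 to 3540 CPM in Gmppb-KO libraries. Col1a1 and Col3a1, the latter not called, held most of it. Their means were 155 and 644 CPM in wild-type and 1483 and 1115 CPM in Gmppb-KO libraries. Lum and Tcf21 were at 0 counts and Thy1 at 1. Of 12 markers of other cell types, 3 were tested, 2 rose and 6 were at 0 in all libraries. The epithelial marker Krt14 went from 9.90 ± 4.35 to 41.9 ± 17.8 CPM (edgeR adjusted p = 0.0362), and limma voom did not call it (adjusted p = 0.0526). The adipocyte marker Fabp4 had 0 counts in wild-type against 16, 24 and 14 in Gmppb-KO replicates 1 to 3 (edgeR adjusted p = 0.0162). Epcam and Adipoq, the other epithelial and adipocyte markers, were at 0 counts. The part of these marker genes in the results given next was not tested. In bulk RNA, fewer cells of a kind and less RNA per cell cannot be told apart. Here CPM stands for counts scaled to a common library size after correction by trimmed mean of M values, and a gene was called at an edgeR quasi-likelihood adjusted p under 0.05 over all 12786 tested genes.

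Of the 36 genes 2 rose in Gmppb-KO cells, and most of the others had log2 fold changes above 0 that did not pass the gene test. Cth, the enzyme that releases cysteine in the last step of transsulfuration, rose 6.16-fold, and Trib3, a pseudokinase that damps Atf4 and Chop activity, rose 2.81-fold. These 2 are 5.56% of the members, where 2.32% of all tested genes were called higher. EdgeR called 0 members lower (1 at an unadjusted p under 0.05, and 0 by DESeq2 or limma voom), where 3.27% of all tested genes were lower. DESeq2 called 3 members higher, adding Slc7a5, against 3.92% of all tested genes; its share called lower was 5.51% over all tested genes. At an unadjusted p under 0.05, 9 members (25%) were higher and 1 (2.78%) lower, against 10.4% and 9.71% of all genes. The 3 and 3 libraries did not overlap in 14 members (38.9%) with Gmppb-KO higher and in 2 (5.56%) with Gmppb-KO lower, where the shares over all genes were 13.1% and 13%. The log2 fold change was above 0 in 31 of 36 members (86.1%), and in 56.6% of all genes. Its median was 0.41 over the members and 0.11 over all tested genes. These counts are descriptions, since the members were chosen with earlier results known.

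**Figure D2:**
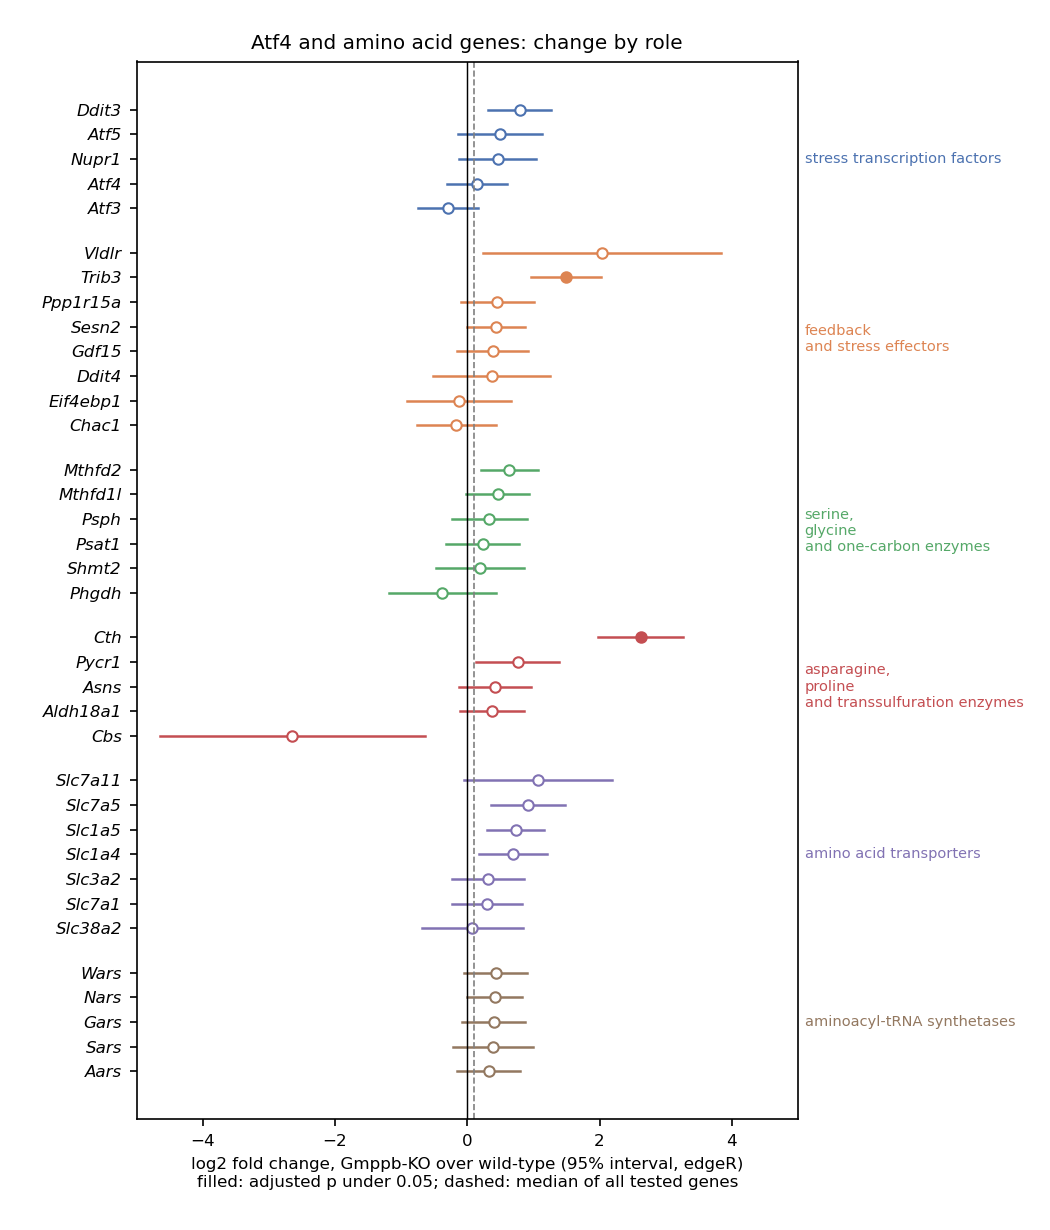
Log2 fold change of Gmppb-KO over wild-type (points) with its 95% interval from the edgeR fit (lines) for each of the 36 genes, grouped by role; filled points passed the gene test and the dashed line is the median of all tested genes, 0.11. Cth and Trib3 are the filled points, Cbs lies far to the left with a wide interval, and most other points sit between 0 and 1.

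The level of Atf4 messenger RNA did not differ beyond the spread between libraries. Replicates 1, 2 and 3 of wild-type held 503, 456 and 421 CPM of Atf4 (ENSMUSG00000042406, chr15:80255184-80257541), and those of Gmppb-KO held 477, 549 and 507 CPM. The groups overlap, with a log2 fold change of 0.15 ± 0.20 (SE, edgeR adjusted p = 0.657) and a 95% interval from -0.30 to 0.60. Per kilobase of gene length, the scale on which levels of different genes can be compared, Atf4 ranked 4 of 36 in wild-type cells at 195 ± 17.3 CPM per kilobase (SD, n = 3) and 3 of 36 in Gmppb-KO cells at 217 ± 15.2. It was thus among the most abundant members in both groups.

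Ddit3 encodes Chop, the factor that Atf4 induces and with which it can pair. Ddit3 (ENSMUSG00000025408, chr10:127290774-127296288) had 45.6, 44.4 and 31.4 CPM in wild-type and 69.4, 75.7 and 64.8 CPM in Gmppb-KO replicates 1 to 3. Every Gmppb-KO library lay above every wild-type one. The log2 fold change of 0.79 ± 0.21 did not pass the gene test (edgeR adjusted p = 0.0751; 0.0786 by DESeq2), but did with total-count scaling (0.97, adjusted p = 0.0328) and with length trends removed (1.08, adjusted p = 0.00828). Ddit3 shares 68 bases with Mars on the other strand, as Atf5 does 571 with Nup62, Psph 452 with Cct6a and Wars 544 with Wdr25; the library kit named in the labels does not mark strand, so reads there cannot be told apart. Of the other factors, Atf5, which acts in the mitochondrial stress response, had a log2 fold change of 0.49 ± 0.28, and Nupr1, a small stress-induced chromatin protein, 0.46 ± 0.26, both with overlapping groups. Atf3, an immediate stress factor that Atf4 induces in many cells, had 36.1, 36.2 and 36.1 CPM in wild-type and 32.9, 30.02 and 25.7 CPM in Gmppb-KO replicates 1 to 3. All Gmppb-KO values were below the wild-type ones, at a log2 fold change of -0.29 ± 0.20 (edgeR adjusted p = 0.406).

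Among the feedback and stress effectors 1 of 8 rose. Trib3 (ENSMUSG00000032715, chr2:152337422-152344032), whose promoter is printed above, had 33.0, 32.9 and 42.8 CPM in wild-type and 125, 101 and 79.5 CPM in Gmppb-KO replicates 1 to 3. The lowest Gmppb-KO library was thus well above the highest wild-type library, and Gmppb-KO replicate 1 stood highest. The log2 fold change was 1.49 ± 0.23 (edgeR adjusted p = 0.00778). Without wild-type replicate 1 the value was 1.42 and the call was lost (adjusted p = 0.0636), and it was made in the other 13 of 14 alternatives. Vldlr, a lipoprotein receptor induced by Atf4 in liver and cultured cells, was barely expressed. Its counts were 23, 3 and 17 in wild-type against 26, 39 and 150 in Gmppb-KO replicates 1 to 3, with a level of 1.37, 0.202 and 0.995 CPM against 1.41, 2.18 and 7.07 CPM. Gmppb-KO replicate 3 held most of the Gmppb-KO counts, and the log2 fold change of 2.04 ± 0.78 was not called (edgeR adjusted p = 0.202).

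Sesn2, which restrains mTORC1 when leucine is short, had a log2 fold change of 0.43 ± 0.19 with no overlap between the groups. Ppp1r15a (Gadd34), which returns the phosphatase to eIF2, had 0.46 ± 0.24, and the secreted stress cytokine Gdf15 had 0.39 ± 0.23. Ddit4 (Redd1), another brake on mTORC1, had 22.2, 19.0 and 54.4 CPM in wild-type and 42.3, 41.5 and 39.5 CPM in Gmppb-KO replicates 1 to 3. Wild-type replicate 3 stood apart from the other wild-type libraries, and the log2 fold change was 0.37 ± 0.38 (edgeR adjusted p = 0.579). Chac1, which degrades glutathione and is often a sensitive Atf4 target, had 119, 145 and 86.3 CPM in wild-type and 112, 123 and 76.7 CPM in Gmppb-KO libraries. The groups overlap throughout, at -0.17 ± 0.26 (edgeR adjusted p = 0.714). Eif4ebp1, a repressor of cap-dependent translation that Atf4 also induces, had -0.12 ± 0.34. The signs of Chac1 and Eif4ebp1 turn with total-count scaling, to 0.005 and 0.05.

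Neither the serine pathway nor its one-carbon branch had a called member. Phgdh, Psat1 and Psph make serine from a glycolytic intermediate, Shmt2 turns serine into glycine in mitochondria, and Mthfd2 and Mthfd1l carry the resulting one-carbon unit to formate. Mthfd2 (ENSMUSG00000005667, chr6:83305691-83325908) had 108, 108 and 114 CPM in wild-type and 202, 150 and 160 CPM in Gmppb-KO replicates 1 to 3. The wild-type libraries lay close together and all Gmppb-KO libraries were higher. Its log2 fold change was 0.64 ± 0.19 (edgeR adjusted p = 0.108; unadjusted p = 0.00932). Mthfd1l had 0.46 ± 0.21, Psph 0.33 ± 0.25, Psat1 0.23 ± 0.24 and Shmt2 0.19 ± 0.29, each with overlapping groups. Phgdh was the most abundant member per kilobase in both groups, at 540 ± 163 CPM per kilobase in wild-type against 416 ± 143 in Gmppb-KO libraries (SD, n = 3 each). Its CPM ran from 961 to 1766 in wild-type and from 626 to 1251 in Gmppb-KO libraries, with Gmppb-KO replicate 3 lowest, and the log2 fold change was -0.38 ± 0.35 (edgeR adjusted p = 0.539). The sum of the 6 genes was 2979 ± 508 CPM in wild-type against 3003 ± 796 CPM in Gmppb-KO libraries, a ratio of 1.01.

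In transsulfuration Cth rose while Cbs, near the detection limit, did not pass the test. Cbs joins homocysteine with serine to cystathionine, and Cth splits cystathionine to cysteine. Cth (ENSMUSG00000028179, chr3:157894248-157925077) had 6.18, 8.16 and 8.43 CPM in wild-type and 34.9, 45.9 and 59.6 CPM in Gmppb-KO replicates 1 to 3. The groups are far apart, and Gmppb-KO replicate 3 stood highest. Mean CPM went from 7.59 ± 1.23 to 46.8 ± 12.4 (SD, n = 3 each), with a log2 fold change of 2.62 ± 0.28 (edgeR adjusted p = 0.00148). It was called in all 14 alternatives, with log2 fold changes from 2.36 to 2.81 and adjusted p from 2.01e-14 to 0.0133. Per kilobase Cth went from rank 33 to rank 26 of the 36 genes, at 2.72 ± 0.441 and 16.8 ± 4.44 CPM per kilobase.

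Cbs (ENSMUSG00000024039, chr17:31612623-31637199) was close to the detection limit, with counts of 12, 14 and 13 in wild-type against 6, 0 and 1 in Gmppb-KO replicates 1 to 3. Levels were 0.713, 0.945 and 0.761 CPM against 0.326, 0 and 0.0472 CPM. All Gmppb-KO libraries were below all wild-type ones, but the log2 fold change of -2.64 ± 0.87 did not pass the test (edgeR adjusted p = 0.145). The ratio of pooled counts was 6.57, with an exact 95% binomial interval from 2.90 to 17.4 that covers counting error only. Without Gmppb-KO replicate 1 the log2 fold change was -4.72 and Cbs was called lower (adjusted p = 0.0348).

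Asns, which makes asparagine and is a classical Atf4 target, was higher in Gmppb-KO replicates 1 and 2 but not in replicate 3. Asns (ENSMUSG00000029752, chr6:7675169-7693254) had 291, 322 and 245 CPM in wild-type and 446, 419 and 281 CPM in Gmppb-KO replicates 1 to 3. The log2 fold change was 0.42 ± 0.24 (edgeR adjusted p = 0.350) with a 95% interval from -0.13 to 0.97. In proline synthesis, Pycr1 makes the last step and Aldh18a1 the first. Pycr1 (ENSMUSG00000025140, chr11:120635712-120643769) had 14.7, 13.2 and 17.4 CPM in wild-type and 29.1, 30.02 and 17.8 CPM in Gmppb-KO replicates 1 to 3. Gmppb-KO replicate 3 was only just above the wild-type range, and the log2 fold change was 0.76 ± 0.28 (edgeR adjusted p = 0.180). Aldh18a1 had 0.37 ± 0.21 with overlapping groups.

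The 7 amino acid transporters all had positive log2 fold changes, with a median of 0.69, and 0 were called by edgeR (3 at an unadjusted p under 0.05, 1 by DESeq2, 0 by limma voom). Slc7a5 and Slc3a2 are the light and heavy chains of the leucine carrier LAT1. Slc7a5 (ENSMUSG00000040010, chr8:121881150-121907694) had 153, 128 and 204 CPM in wild-type and 359, 252 and 305 CPM in Gmppb-KO replicates 1 to 3. The groups do not overlap, and the log2 fold change was 0.92 ± 0.24 (edgeR adjusted p = 0.0736, DESeq2 adjusted p = 0.0318). Its partner Slc3a2, which also serves the cystine carrier, had 278, 311 and 212 CPM in wild-type and 383, 350 and 261 CPM in Gmppb-KO libraries, overlapping at 0.31 ± 0.24.

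Slc1a5 (ASCT2), the glutamine exchanger, and Slc1a4 (ASCT1), a serine and alanine exchanger, were higher in each Gmppb-KO library without passing the test. Slc1a5 (ENSMUSG00000001918, chr7:16781340-16798274) had 37.0, 31.5 and 35.8 CPM in wild-type and 62.3, 59.5 and 51.3 CPM in Gmppb-KO replicates 1 to 3. Slc1a4 (ENSMUSG00000020142, chr11:20302180-20332713) had 34.5, 29.2 and 41.8 CPM in wild-type and 60.9, 46.8 and 62.9 CPM in Gmppb-KO replicates 1 to 3. In both genes all Gmppb-KO libraries were higher than all wild-type ones. Log2 fold changes were 0.73 ± 0.19 for Slc1a5 (edgeR adjusted p = 0.0677) and 0.69 ± 0.22 for Slc1a4 (edgeR adjusted p = 0.132). Slc1a5 was called without Gmppb-KO replicate 3 (adjusted p = 0.0405) and with length trends removed (adjusted p = 0.0398).

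Slc7a11, the cystine carrier whose promoter held the element in both directions, had 5.46, 5.26 and 5.91 CPM in wild-type and 5.33, 8.46 and 21.0 CPM in Gmppb-KO replicates 1 to 3. Gmppb-KO replicate 1 was within the wild-type range and replicate 3 far above it, and the log2 fold change of 1.07 ± 0.49 (edgeR adjusted p = 0.267) was 0.26 without replicate 3. Slc38a2 (SNAT2), a glutamine carrier that responds to amino acid shortage, showed the same library apart, with 151, 122 and 168 CPM in wild-type and 110, 111 and 245 CPM in Gmppb-KO replicates 1 to 3. Its log2 fold change of 0.08 ± 0.33 was -0.46 without Gmppb-KO replicate 3, and its sign also turned under several other settings. The arginine and lysine carrier Slc7a1 had 0.29 ± 0.23.

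The 5 tRNA synthetases, which charge alanine (Aars), glycine (Gars), asparagine (Nars), serine (Sars) and tryptophan (Wars), lay close to each other. Their log2 fold changes ran from 0.32 ± 0.21 for Aars to 0.43 ± 0.21 for Wars, and edgeR, DESeq2 and limma voom called 0 of 5, with 0 at an unadjusted p under 0.05. In 4 of 5 the groups did not overlap, the exception being Sars, where 13.1% of all tested genes did not overlap with Gmppb-KO higher. Nars, with the smallest p among them, had 218, 214 and 248 CPM in wild-type and 282, 300 and 325 CPM in Gmppb-KO replicates 1 to 3. Its log2 fold change was 0.41 ± 0.18 (edgeR adjusted p = 0.256). The summed level of the 5 was 1687 ± 73.0 CPM in wild-type against 2199 ± 373 CPM in Gmppb-KO libraries.

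**Figure D3:**
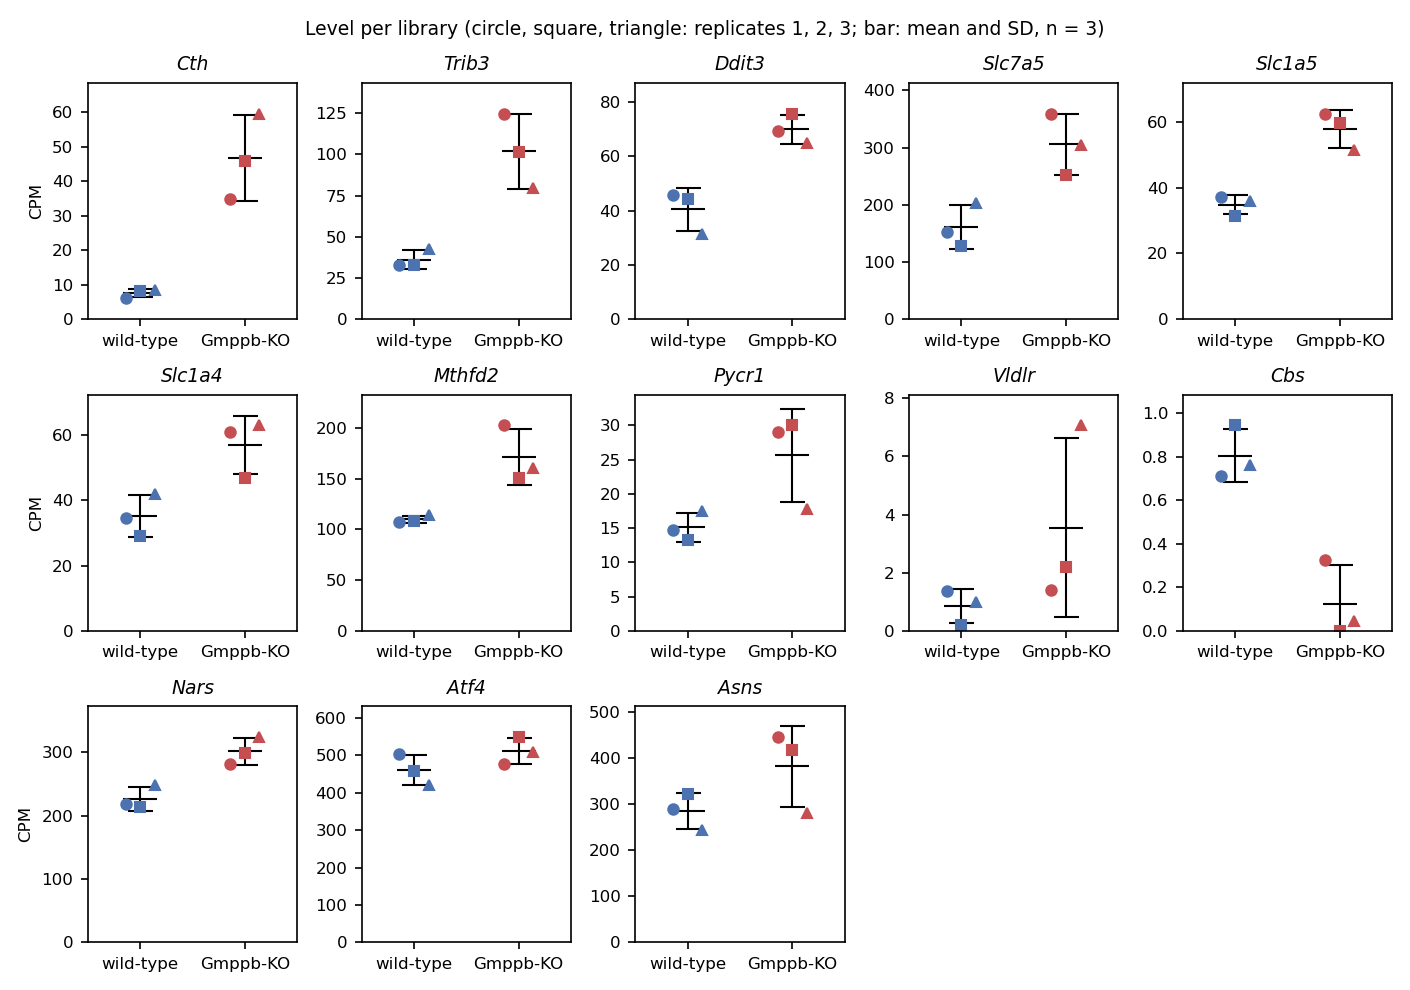
Level in CPM in each library for Cth, Trib3 and 11 further members, those with an unadjusted p under 0.05, Nars as the synthetase with the smallest p, and Atf4 and Asns; symbols mark replicates and bars the mean and SD, and each vertical axis starts at 0. The groups are separate in Cth, Trib3, Ddit3, Slc7a5, Slc1a5, Slc1a4, Mthfd2, Pycr1, Vldlr, Cbs and Nars and overlap in Atf4 and Asns.

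The Gmppb-KO libraries differed among themselves in how far the members lay from wild-type. The median member was 0.59 above the wild-type mean on the log2(CPM + 0.5) scale in Gmppb-KO replicate 1, 0.41 in replicate 2 and 0.15 in replicate 3. The number of members above every wild-type library was 26, 27 and 20 in turn. These medians and counts were not worked out over all tested genes, so they do not show a trait particular to the members. Gmppb-KO replicate 1 had the highest value of the Gmppb-KO libraries in 22 members and replicate 3 in 8, namely Nupr1, Vldlr, Cth, Slc7a11, Slc7a1, Slc1a4, Slc38a2 and Nars. Of the 5 members longer than 8000 bases (Vldlr, Slc7a11, Slc7a1, Slc38a2 and Aars), 4 were highest in replicate 3. Over all 12786 tested genes, the difference of replicate 3 from the mean of the other Gmppb-KO libraries had a Spearman correlation of 0.54 with gene length, and of 0.34 over the 36 members. The log2 fold change of Gmppb-KO over wild-type had one of 0.33 over all genes and 0.15 over the members. These describe genes of the same libraries, which are not independent. With each library's length trend removed, 8 members were called higher (Atf5, Cth, Ddit3, Gdf15, Mthfd2, Slc1a5, Slc7a5 and Trib3), where 3.51% of all tested genes were called higher under that setting.

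The summed level of all members was 7375, 8353 and 6843 CPM in wild-type and 10110, 9245 and 7033 CPM in Gmppb-KO replicates 1 to 3. The groups overlap through Gmppb-KO replicate 3, and the ratio of means was 1.17. Of raw counts, the members took 0.689% to 0.730% in a wild-type library and 0.847% to 1.00% in a Gmppb-KO library. These shares lack the correction by trimmed mean of M values, which has its largest factor, 1.206, in Gmppb-KO replicate 3. The groups are separate in these shares but overlap in the corrected sums. By role the ratio was highest for the asparagine, proline and transsulfuration enzymes at 1.43 and for the transporters at 1.39, followed by the tRNA synthetases at 1.30 and the transcription factors at 1.23. The effectors had a ratio of 1.09.

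**Figure D4:**
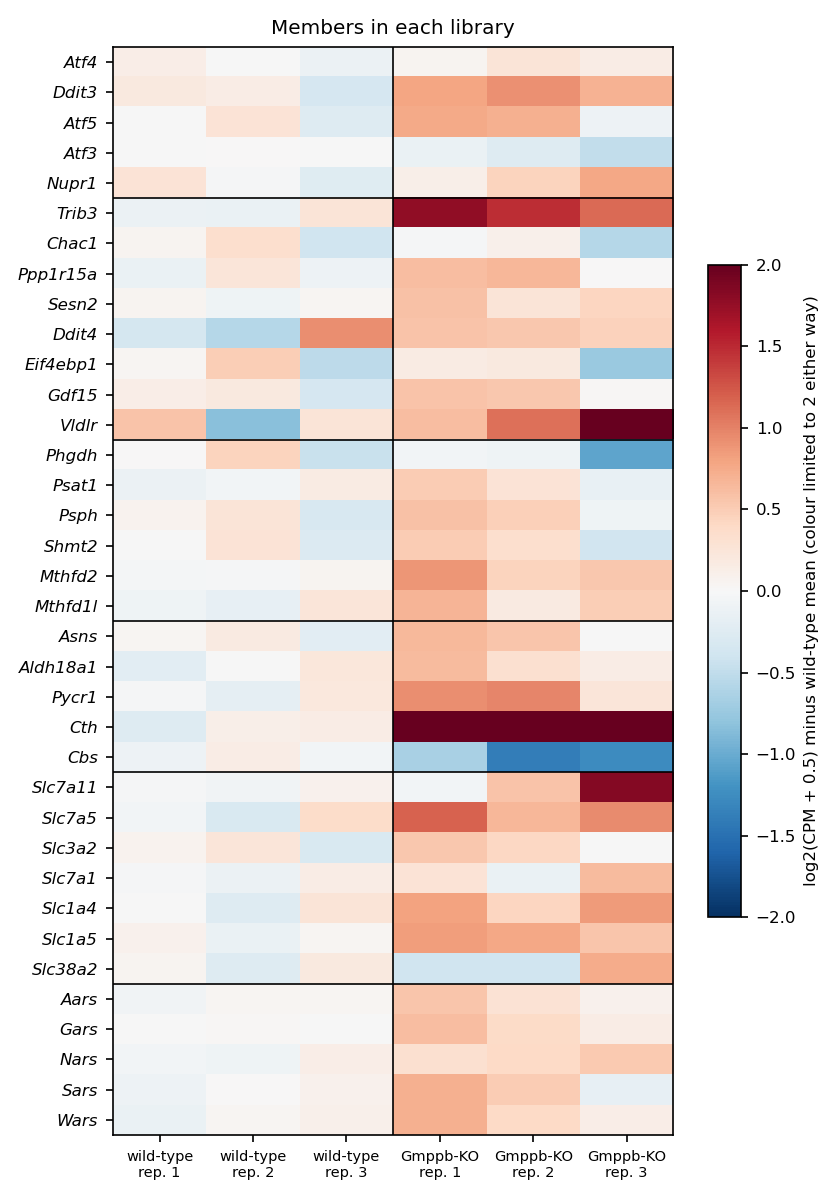
Each member (rows, ordered by role) in each of the 6 libraries (columns) as log2(CPM + 0.5) minus the wild-type mean; red is higher and blue lower, with colour limited to 2 either way. Gmppb-KO replicates 1 and 2 are red in most rows, and replicate 3 is above the wild-type mean in 24 of 36. Replicate 3 is deep red for Cth, Vldlr and Slc7a11, and blue for Cbs, Phgdh, Eif4ebp1 and Chac1 among others. Cbs is blue in every Gmppb-KO library.

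Further genes of the pathway, taken from lists by function, had log2 fold changes in both directions and of different sizes. Of all tested genes, 2.32% were called higher and 3.27% lower by edgeR, and 3.92% and 5.51% by DESeq2. At an unadjusted p under 0.05 in edgeR these shares were 10.4% and 9.71%. The calls in the lists below describe single genes and are to be read beside these shares. Of the eIF2 kinases, eIF2 and eIF2B subunits and related regulators, edgeR called 0 of 15 (2 at an unadjusted p under 0.05). Eif2ak3 (Perk), the kinase of the endoplasmic reticulum, averaged 9.12 ± 3.34 CPM in wild-type libraries and 15.6 ± 5.63 in Gmppb-KO, a log2 fold change of 0.77 ± 0.37 (edgeR adjusted p = 0.285). Eif2ak4 (Gcn2), the kinase that senses uncharged tRNA, had 8.76 ± 4.47 and 10.9 ± 2.99 CPM (log2 fold change 0.31 ± 0.41). The kinase gene Eif2ak2 had the largest log2 fold change of the list, 1.77 ± 0.73, and was not called (edgeR adjusted p = 0.228). Its counts were 57, 15 and 63 in wild-type against 58, 96 and 404 in Gmppb-KO replicates 1 to 3, so that Gmppb-KO replicate 3 held most. Among 18 bZIP factors that can pair with Atf4 or Chop, 1 fell and 0 rose by edgeR, and DESeq2 called 2 lower. The edgeR call was Junb, an AP-1 subunit, with 156, 139 and 170 CPM in wild-type and 97.9, 89.4 and 77.8 CPM in Gmppb-KO replicates 1 to 3 (log2 fold change -0.81 ± 0.19, edgeR adjusted p = 0.0424). All Gmppb-KO values lay below the wild-type ones, but the call was lost on leaving out any 1 library other than Gmppb-KO replicate 3, with total-count scaling (adjusted p = 0.141) and with length trends removed (adjusted p = 0.0845). Cebpa, another C/EBP factor, was called lower by DESeq2 alone of the 3 tools, at 25.8 ± 5.19 and 13.7 ± 1.38 CPM (edgeR adjusted p = 0.0783, DESeq2 adjusted p = 0.00917). Cebpb, a partner of Atf4 on the response element, had 104 ± 25.1 and 74.5 ± 7.68 CPM (log2 fold change -0.48 ± 0.23, edgeR adjusted p = 0.269).

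Of 20 other stress response targets, 1 rose and 2 fell. Ero1l, an oxidase of the endoplasmic reticulum that Chop induces, had 18.7, 14.9 and 20.3 CPM in wild-type and 37.0, 42.8 and 81.5 CPM in Gmppb-KO replicates 1 to 3, with Gmppb-KO replicate 3 highest (log2 fold change 1.58 ± 0.33, edgeR adjusted p = 0.0279). Stc2, a secreted glycoprotein that Atf4 induces in other cells, fell from 27.6 ± 2.75 to 11.6 ± 1.61 CPM (log2 fold change -1.25 ± 0.23, edgeR adjusted p = 0.0179). Fgf21, an endocrine factor that Atf4 induces in liver and muscle, had 18, 15 and 19 reads counted in wild-type against 3, 0 and 0 in Gmppb-KO replicates 1 to 3, and was called lower (edgeR adjusted p = 0.0339). The ratio of its pooled counts was 20.4, with an exact 95% binomial interval from 6.61 to 102 that covers counting error only. The calls were lost without wild-type replicate 1, wild-type replicate 2 or Gmppb-KO replicate 2 for all 3 genes, without wild-type replicate 3 for Ero1l and Fgf21, and without Gmppb-KO replicate 3 for Fgf21. They were also lost with total-count scaling for Ero1l (adjusted p = 0.0657) and Fgf21 (0.052), and with the filter at a mean of 10 CPM for Ero1l (0.0681). DESeq2 and limma voom called the same 3 genes of this list.

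In amino acid supply, the list of other transporters held the largest change of these lists. Slc7a3, a cationic amino acid carrier, had 1, 0 and 2 reads counted in wild-type against 34, 36 and 58 in Gmppb-KO replicates 1 to 3. The ratio of pooled counts was 36.2, with an exact 95% binomial interval from 12.1 to 178 for counting error only, and the gene was called higher (edgeR adjusted p = 0.00461), also in all 13 alternatives that tested it. With 2.20 ± 0.470 CPM in Gmppb-KO it was still a weakly expressed gene. Slc43a1, a leucine and methionine carrier, fell from 2.70 ± 0.575 to 0.506 ± 0.300 CPM (log2 fold change -2.41 ± 0.55, edgeR adjusted p = 0.0409), so that 1 of 16 tested transporters rose and 1 fell by edgeR; DESeq2 also called Slc43a2 lower (edgeR adjusted p = 0.132, DESeq2 adjusted p = 0.0435). Of 20 tested one-carbon and folate enzymes 1 rose by edgeR, Aldh1l1, which oxidises formyl-tetrahydrofolate, from 0.630 ± 0.329 to 2.83 ± 0.555 CPM (log2 fold change 2.15 ± 0.49, edgeR adjusted p = 0.0402). DESeq2 called 2 higher and 1 lower in that list, adding Aldh1l2, the mitochondrial relative of Aldh1l1, at 17.5 ± 11.03 and 64.8 ± 31.5 CPM (log2 fold change 1.88 ± 0.49, edgeR adjusted p = 0.0689, DESeq2 adjusted p = 0.00183). The other was Gldc of the glycine cleavage system, at 1.30 ± 0.407 and 0.163 ± 0.194 CPM (log2 fold change -2.89 ± 0.83, edgeR adjusted p = 0.0974, DESeq2 adjusted p = 0.022). Of 17 enzymes of non-essential and branched-chain amino acids 1 rose by edgeR, the transaminase gene Bcat1, with 125, 136 and 135 CPM in wild-type and 264, 226 and 202 CPM in Gmppb-KO replicates 1 to 3 (log2 fold change 0.81 ± 0.19, edgeR adjusted p = 0.0440). DESeq2 also called Gpt, an alanine transaminase, lower (edgeR adjusted p = 0.0525, DESeq2 adjusted p = 0.00202). The calls of Slc43a1 and Bcat1 were lost on leaving out any 1 library other than Gmppb-KO replicate 3, and that of Aldh1l1 without wild-type replicates 1 or 2 or Gmppb-KO replicates 1 or 2. That of Bcat1 was further lost with DESeq2 size factors (adjusted p = 0.0828), with every named gene of a count sum above 1 tested (0.103), at a mean of 10 CPM (0.0764) and with length trends removed (0.181), and that of Aldh1l1 with total-count scaling (0.0529).

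The other cytosolic tRNA synthetases had 0 of 18 called and the mitochondrial ones 0 of 17, with medians of 0.17 and 0.09; 2 and 3 of them had an unadjusted p below 0.05. DESeq2 and limma voom likewise called 0 in each of these lists and 0 of the eIF2 genes. Among 19 tested genes of amino acid sensing upstream of mTORC1, 1 fell by edgeR, Ddit4l, a relative of Ddit4 that restrains mTORC1 in muscle. It had 54, 47 and 44 reads counted in wild-type against 18, 12 and 10 in Gmppb-KO replicates 1 to 3 (log2 fold change -2.07 ± 0.43, edgeR adjusted p = 0.0272). The groups do not overlap, and the call was lost without wild-type replicate 1, wild-type replicate 2 or Gmppb-KO replicate 2. DESeq2 called 3 lower in that list, adding Tsc2, part of the complex that inhibits mTORC1 (82.7 ± 10.5 and 47.2 ± 9.68 CPM, edgeR adjusted p = 0.0754, DESeq2 adjusted p = 0.0281), and Deptor, an mTOR inhibitor (12.2 ± 4.67 and 4.09 ± 3.42 CPM, edgeR adjusted p = 0.187, DESeq2 adjusted p = 0.03). List medians were 0.28 for the eIF2 genes, 0.04 for the bZIP factors, 0.41 for the other stress targets, 0.19 for the folate enzymes, -0.06 for the other enzymes, 0.23 for the other transporters and -0.11 for the sensing genes.

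**Figure D5:**
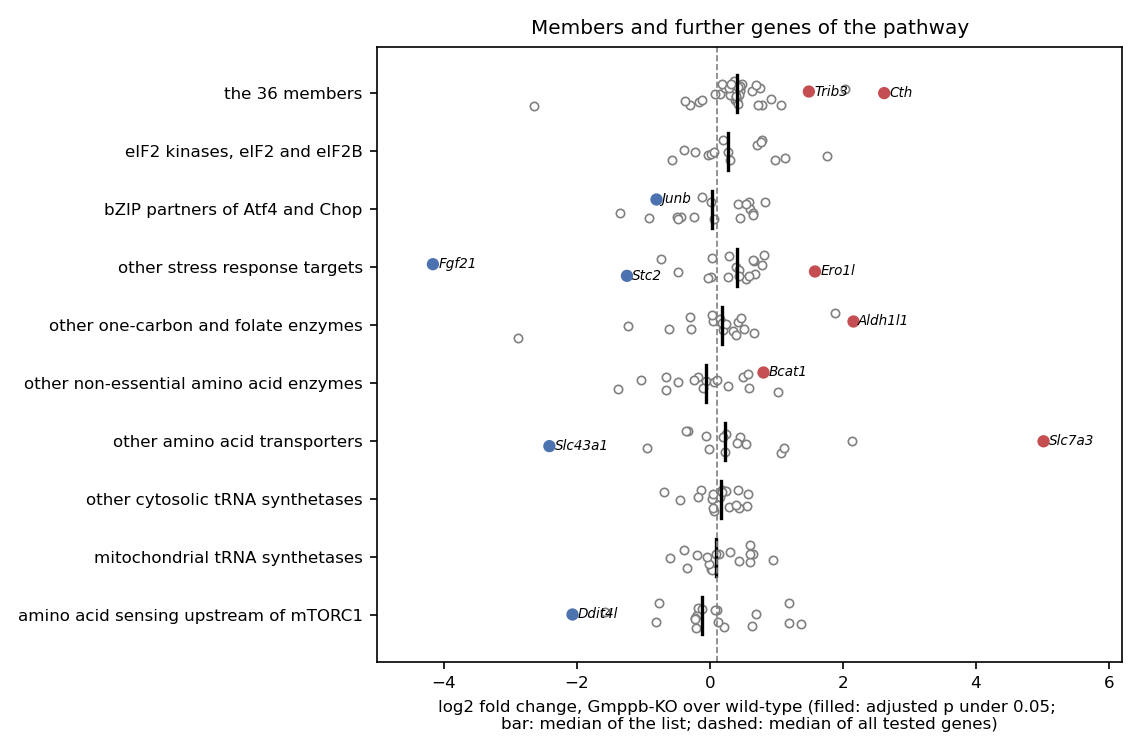
Log2 fold change of Gmppb-KO over wild-type for every tested gene of the 36 members and of the 9 further lists (circles, spread vertically for visibility); filled circles passed the gene test and are named, black bars are list medians and the dashed line is the median of all tested genes, 0.11. The medians of the members and of the other stress targets, both 0.41, are the highest of these rows, and Slc7a3 and Fgf21 lie farthest out.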

How the data were processed

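Messenger RNA of 3 wild-type and 3 Gmppb-KO libraries was counted per gene. The authors deposited whole-number read counts per gene, 1 column per library, not normalized, per the file headers. Tools listed in the submitters' processing notes are HISAT2, featureCounts of Subread, FastQC and DESeq2, and the build is mm10; no source used here gives the annotation release or the strand setting. The same table holds the authors' FPKM, normalized mean signal, log2 fold changes and p-values, which the authors deposited and which were not used here; the deposited gene length in bases served for levels per kilobase and length trends. The 201 loci without a gene name took 0.0699% to 0.195% of a library's counts and were left out.

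The members and lists were chosen with earlier results of these data known. The main test was the quasi-likelihood F test of edgeR 4.0.16 (R 4.3.3), 2-sided, with group as the only term, after filterByExpr and scaling by trimmed mean of M values, with Benjamini-Hochberg adjustment over all 12786 tested genes. Standard errors came from the F statistic and 95% intervals from its degrees of freedom. Values in every library are given for Atf4, Ddit3, Trib3, Asns, members with an unadjusted p under 0.05 and the member with the smallest p of each role; those of Atf3, Chac1, Ddit4, Slc3a2, Slc7a11 and Slc38a2 were added after their values were seen. From the lists, genes past the test and Eif2ak3, Eif2ak4 and Cebpb are named. Those called by DESeq2 alone (Cebpa, Aldh1l2, Gldc, Gpt, Slc43a2, Tsc2 and Deptor) were added after their values were seen. So were Eif2ak2 and the markers Myf5 and Col3a1. The markers Des, Lum, Tcf21, Thy1, Epcam and Adipoq, which were not called or not tested, are also named. Alternatives were DESeq2 1.42.0, limma 3.58.1 voom, DESeq2 size factors, total-count scaling, 2 other filters, a replicate block, removal of length trends and leaving out each library; their use on list genes was added after seeing the data. In a simulated Gmppb-KO over wild-type comparison with 12565 genes, 34 of 49 genes raised 4-fold and 2 of 49 raised 2-fold were recovered. Of 12377 unchanged genes 2 were called. Changes of 2-fold were thus mostly missed in the simulation. It changed fewer genes than were called in the data, so its recovery shares need not hold for the data. The simulated libraries were drawn independently and without a length trend, so the number of unchanged genes called need not hold either.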

Additional observations from a re-analysis of the deposited data

How the results depend on the processing

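The Cth rise was called in all 14 alternatives and the Trib3 rise in 13. Members called higher numbered 7 with a replicate block, against 2, adding Ddit3, Mthfd2, Slc1a4, Slc1a5 and Slc7a5. The block called 5.26% of all tested genes higher, against 2.32% in the main fit. With length trends removed 8 members were higher, where 3.51% of all tested genes were. With 1 library left out 1 to 4 members were higher, where 0.906% to 2.69% of all tested genes were. Cth alone was called without wild-type replicate 1, and Pycr1 and Slc1a5 were added without Gmppb-KO replicate 3. Members called lower ranged from 0 to 1 (Cbs, without Gmppb-KO replicate 1). Over all genes, 297 were called higher and 418 lower. These counts were 528 and 767 by DESeq2, 77 and 127 with a mean of at least 10 CPM (8221 genes tested) and 673 and 945 with the block. With length trends removed 449 were higher. They ranged from 119 to 353 and from 212 to 458 with 1 library left out; without wild-type replicates 1 or 2 or Gmppb-KO replicate 2 they were 119 and 212, 158 and 286, and 158 and 239. The labels do not say that same-numbered libraries form pairs, so the numbers were not taken as pairs. Correlations of deviations between same-numbered libraries were -0.179, 0.508 and 0.42, and with so few libraries they do not decide the question. The members' median stayed 0.20 to 0.45 above that of all genes in all 14 alternatives; total-count scaling moved the latter from 0.11 to 0.27. Signs turned for genes near 0: Slc38a2 (-0.021 by voom, -0.018 with the block, -0.004 with DESeq2 size factors, -0.002 with all genes, -0.18 with length trends removed), Eif4ebp1 (0.049 with total-count scaling, 0.065 with length trends removed) and Chac1 (0.005 and 0.12). With 1 library left out, Slc38a2 ranged from -0.46 to 0.27, Eif4ebp1 from -0.42 to 0.12, Shmt2 from -0.069 to 0.362 and Psat1 from -0.002 to 0.34. The cause was not tested. Depth limits genes with few counts, among them Cbs, Vldlr, Slc7a3, Fgf21, Fabp4, Ddit4l, Gldc, Slc43a1 and Aldh1l1. Wild-type and Gmppb-KO replicates 1 to 3 had 14, 23 and 26 against 0, 2 and 8 counts of Gldc. Those of Slc43a1 were 44, 49 and 37 against 10, 14 and 4, and those of Aldh1l1 were 6, 8 and 17 against 62, 51 and 48.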
